A study of Mus musculus with 12 samples.

Results

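The genes described here are 154 coding genes of mouse quadriceps whose RNA was lower in every library labelled KO than in all libraries labelled WT or AAV. Values are normalised read counts, that is, reads per gene divided by 1 size factor for each library, and differences are on the log2(value + 1) scale. Of the 15344 genes in the tables, 13703 are listed as coding and reached a value of 10 in any library. In 969 of these (7.07%) the highest KO value lay below all 8 WT and AAV values, and in 172 (1.26%) the KO mean was also at least 2 log2 units below the mean of the 8 others. Leaving out 18 genes by name (14 families such as troponins, myosins, collagens and ribosomal proteins, and 6 single genes) gave the 154 members. The members were thus chosen by their levels in the libraries labelled KO against the 8 others, and those levels are given below as a description without a test. The contrast between the libraries labelled AAV and WT was tested, but it is not independent of the choice, which treated these 8 libraries alike and required each of them to lie above KO.

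RNA sequencing covered 12 mice at 6 months of age in 3 groups of 4. The libraries labelled KO came from male GAA-KO mice on a C57BL/6 background injected with PBS. The libraries labelled AAV came from the same knockout strain after 1 tail vein injection at 2 months of age of AAV2/8-LSPhGAApA (2e12 vg/kg), a vector with a liver-specific promoter, so that human acid alpha-glucosidase is made in the liver and reaches muscle through the blood, and muscle was taken 4 months later. The libraries labelled WT came from untreated C57BL/6 mice of the same age. The WT mice received no injection, so injection and genotype cannot be told apart between the labels KO and WT. The p-values measure the spread between single animals.

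Gaa, the gene disrupted in these mice, went against the labels. It lies at chromosome 11, 119267887 to 119285454 on the + strand of GRCm38, and its normalised counts were 343, 14640.2, 324 and 460.3 in WT replicates 1 to 4, 12151, 13074.5, 11936 and 12895 in KO replicates 1 to 4, and 947, 587, 499.6 and 9854 in AAV replicates 1 to 4. The 4 libraries labelled KO, WT replicate 2 and AAV replicate 4 were thus high. GAA activity and glycogen, which also bear on the labels, were not analysed here. Every direction below rests on the labels. The members cannot check the labels, since the choice took only genes in which WT replicate 2 and AAV replicate 4 lay above all KO libraries. Total reads per library lay between 22122233 and 47379737, and the share of reads on mitochondrial genes between 3.11% (AAV replicate 4) and 10.03% (WT replicate 3).

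Pompe disease is a lysosomal storage disease in which acid alpha-glucosidase is lost, glycogen fills the lysosomes of muscle fibres and the fibres weaken. Limb muscle holds, beside its fibres, satellite cells that repair them, macrophages that enter damaged tissue, and connective tissue, vessels and nerve. Repair and denervation turn on a known set of genes in fibres and satellite cells, among them growth-factor response genes, embryonic and slow-type muscle proteins, and annexins and S100 proteins that act at the damaged membrane. Of the 154 members, 63 are in 14 lists of genes by role, which were written with earlier results of these data known.

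**Figure D1:**
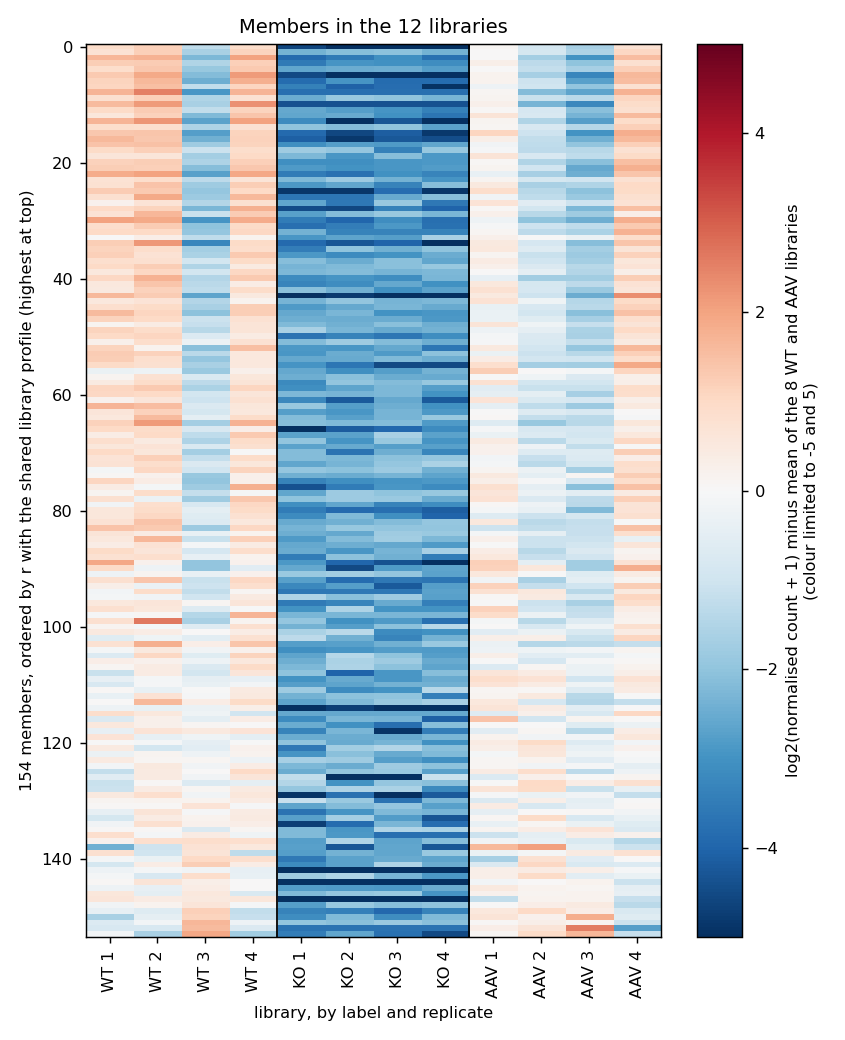
Heat map of the 154 members (rows, ordered by Pearson r with the members' shared library profile) in the 12 libraries (columns, by label and replicate). Colour is log2(normalised count + 1) minus the mean of the 8 libraries labelled WT and AAV. All 4 KO columns are low, as the choice of genes requires, and WT replicate 3 and AAV replicate 3 are paler or blue in the upper rows.

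Library by library, the members did not split simply into low KO and high WT and AAV libraries. The median member lay 1.17 log2 units below its group mean in WT replicate 3 and 0.86 below in AAV replicate 3 (deviations of -1.17 and -0.86). AAV replicate 2 deviated by -0.39, while the other 5 deviated by 0.28 (WT replicate 1), 0.54 (WT replicate 2), 0.41 (WT replicate 4), 0.38 (AAV replicate 1) and 0.82 (AAV replicate 4). The same median over all 13703 coding genes lay between -0.012 and 0.019 in every library. WT replicate 3 and AAV replicate 3 were the lowest of the 8 libraries for 47 and 58 members (30.5% and 37.7%, against 18.1% and 11.3% of the coding genes). These libraries therefore stood between the KO libraries and the rest. In the median member WT replicate 3 lay 1.28 log2 units above the highest KO value and AAV replicate 3 lay 1.11 above it, against 2.85 for the mean of the other 3 WT libraries. The same rule takes 196 genes without WT replicate 3, 215 without AAV replicate 3 and 316 without both, 153 of the latter being members.

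**Figure D2:**
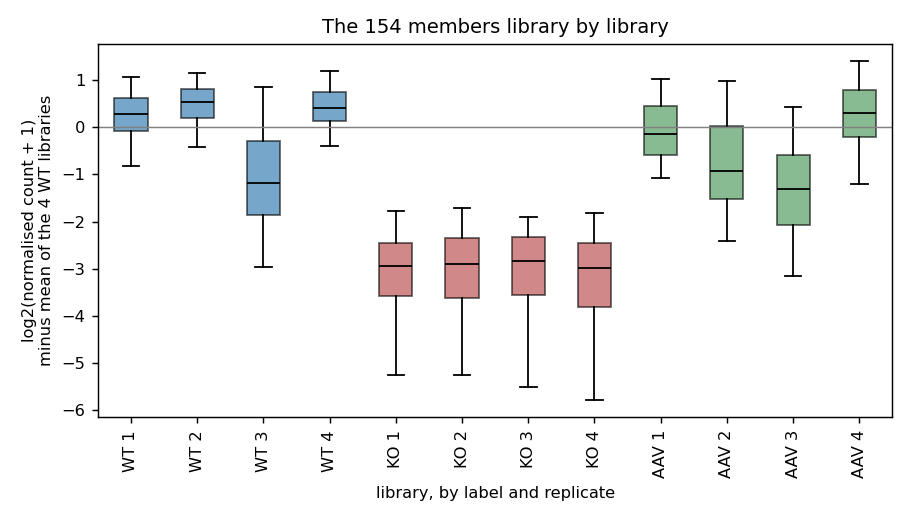
Box plots of the 154 members in each library, as log2(normalised count + 1) minus the mean of the 4 libraries labelled WT. Boxes span the quartiles with the median as a line, and whiskers run from the 5th to the 95th percentile. WT replicate 3 (median -1.17), AAV replicate 2 (-0.93) and AAV replicate 3 (-1.30) sit between the KO libraries (-2.97 to -2.83) and the other WT and AAV libraries.

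Many members shared this order of libraries. The profile was the median member's deviation from its group mean in each of the 8 WT and AAV libraries, taken without the gene in question. The correlation with it was 0.9 or more for 76 of the 154 members (49.4%) and for 1033 of the other coding genes (7.63%), and it was 0.5 or more for 112 members. This is a description over 8 libraries, and every gene was read from the same 8 mice at the same depths. The likeness was closest for Fosl1 (r = 0.998), followed by Uap1l1 (0.994), Dusp4 (0.993), Serpinb1a (0.993) and Timp1 (0.992). It was also close for Mustn1, Anxa2 and Ahnak2 (0.99 each). Not all members followed it: 21 had r below 0, and the most opposite were the presynaptic scaffold gene Erc2 (-0.95), the lipid phosphatase gene Ppapdc1a (-0.90), the glutamate receptor subunit Grin2c (-0.86) and the serine protease Prss41 (-0.84). These 4 genes were named after their values were seen.

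**Figure D3:**
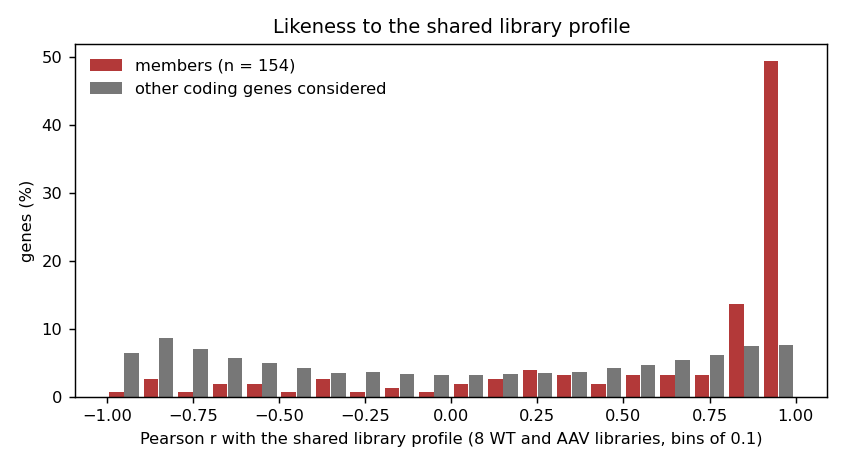
Distribution of the Pearson correlation of each gene with the members' shared profile over the 8 libraries labelled WT and AAV, in bins of 0.1. Red bars are the 154 members and grey bars the other coding genes. The last bin holds 49.4% of the members and 7.63% of the other genes.

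Markers of other cells moved with the same libraries. The summed value of 8 macrophage markers (of 9 in the list) was 2668, 2699, 1019 and 3168 in WT replicates 1 to 4, between 639 and 1174 in the KO libraries, and 1702, 1151, 731 and 3212 in AAV replicates 1 to 4. WT replicate 3 and AAV replicates 2 and 3 thus lay within the KO range for macrophage markers, and no measured marker of this list was at 0 in any group. The 5 satellite cell markers summed to between 2994 (replicate 3) and 6934 in WT, 2918 to 3286 in KO, and 3333 to 5914 in AAV libraries. Over the 8 WT and AAV libraries the summed markers correlated with the members' profile at r = 0.97 for macrophages, 0.87 for satellite cells and -0.90 for the 6 endothelial markers, whose sum was 1683 to 4776 in WT, 3835 to 5202 in KO and 3231 to 5427 in AAV libraries. Their part in the members' levels was not tested, and in whole muscle fewer cells of a type and less RNA per cell cannot be told apart. The 10 skeletal muscle fibre markers were abundant in all 12 libraries, with sums between 3051600 and 4753190, and their sum ran against the profile (r = -0.66), as did those of Schwann cell and nerve (-0.72), red blood cell (-0.53), adipocyte (-0.47) and skin markers (-0.43). The sums of fibroblast (0.55), neutrophil (0.54) and tendon markers (0.51) ran with it. Of 7 skin markers only Krt10 was measured (24.2 to 126.5 over the 12 libraries), and tendon markers, 1 of which (Scx) is a member, summed to between 870.0 and 2034.

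The members ranged widely in level. Their mean over the WT and AAV libraries ran from 5.05 to 16639 with a median of 104.8, against 324.6 for all coding genes considered. In the libraries labelled KO 77 members had a mean under 10, 28 a mean of 100 or more, and 5 had no read. The difference of KO from the 8 others had a median of -2.64 and ran from -7.28 to -2.01. The groups were separated by a narrow margin in most: the lowest WT or AAV value lay under 1 log2 unit above the highest KO value in 107 members and 2 or more above it in 11. At the threshold, the members just inside were Bok (-2.04), Fyb (-2.03), Arl5c (-2.03) and Grin2c (-2.01), and the genes just outside were Bri3 (-1.98), Lrrn2, Vgll2 and Hbegf (-1.97 each).

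The largest difference belonged to Gdpd3, a phospholipase D-type enzyme of lysophospholipid and N-acylethanolamine metabolism. Its normalised counts were 1306, 1462, 1382 and 1173 in WT, 6.76, 10.3, 10.9 and 8.84 in KO and 1913, 2049.8, 1929 and 1513 in AAV libraries. The means were 1331 ± 123, 9.19 ± 1.83 and 1851 ± 233 (SD, n = 4), so that the KO level was 145 times lower than WT. No KO library came near a WT or AAV library, WT replicate 3 and AAV replicate 3 included, and Gdpd3 did not follow the shared profile (r = -0.52). Hal, the first enzyme of histidine breakdown, read 78.7, 72.3, 74.7 and 114 in WT, 1.93, 2.57, 0 and 0 in KO and 147, 125, 65 and 95.4 in AAV libraries. The creatine synthesis enzyme Gamt had its lowest WT value in replicate 3 (2155, 3049.9, 590.1 and 2573 in WT, 297, 279.6, 322 and 355 in KO and 1210.1, 611, 844 and 1707 in AAV libraries). The 8 genes of the same enzyme list that are not members held no call lower in KO than in WT. Both of its calls were higher in KO, Gdpd5 and Gpcpd1, which act on glycerophosphodiesters, and the mean of Gpcpd1 was 3234 in WT, 10560.0 in KO and 3619 in AAV libraries.

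Growth-factor and stress response genes were led by Fosl1, the AP-1 subunit Fra-1. Fosl1 read 132, 158, 28.4 and 131 in WT libraries, 1.93, 0.855, 1.09 and 0 in KO libraries and 74.4, 36.2, 21.3 and 117 in AAV libraries. WT replicate 3 and AAV replicate 3 were the lowest outside KO and still lay 2.92 log2 units or more above the highest KO value. The other AP-1 member was Jund, at 1313, 3966, 1648 and 2483 in WT, 205, 277, 349 and 411 in KO and 1879, 724, 468 and 564 in AAV libraries, and AAV replicates 2 to 4 lay below all WT values. Of 11 further AP-1 genes and partners tested, 3 were called lower in KO than in WT (Junb, Maff and Atf3), where a call is an adjusted p under 0.05 by limma and a difference of at least 1. Over all genes 8.5% were called lower in KO than in WT, 5.43% higher in KO than in WT and 5.43% higher in AAV than in KO. Without WT replicate 3 the calls in the whole AP-1 list rose from 5 to 8. The 5 include the members Fosl1 and Jund, whose direction was fixed by the choice, so the count is no test of them. Junb, an AP-1 subunit, averaged 1621 in WT, 153 in KO and 396 in AAV libraries.

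The MAP kinase phosphatases Dusp4 and Dusp2, which switch off MAP kinases, were members with differences of -3.15 and -2.88. Dusp4 read 684, 697, 101 and 655 in WT, 24.2, 35.9, 34.8 and 32.7 in KO and 354, 116, 70.9 and 500.1 in AAV libraries, with the WT and AAV minima again in replicate 3. Dusp5 was the 1 of 8 further phosphatases called lower in KO than in WT, and it was called higher in AAV than in KO. In the list of ERK feedback and growth-factor response genes, the members were Arc, an activity-regulated gene (-3.0), and Ptgs2, the inducible prostaglandin synthase (-4.15). Of 20 further genes 9 were called lower and 1 higher in KO than in WT, and of 19 tested 4 were called higher in AAV than in KO. Nab2, a repressor of EGR factors, averaged 1022 in WT, 216 in KO and 761 in AAV libraries.

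Tgfb1, the ligand TGF-beta 1, was the only member of its pathway list. It read 737, 1396, 206 and 1061 in WT, 66.7, 97.5, 119 and 89.3 in KO and 529, 171, 129.9 and 557 in AAV libraries. The margin between the groups was small, since AAV replicate 3 (129.9) lay just above KO replicate 3 (118.6). Of the 18 other ligands, receptors, binding proteins and Smads tested, 1 was called higher in KO than in WT (the signal transducer Smad3). Their median KO minus WT difference was 0.34, beside 0.02 over all genes tested.

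The annexin and S100 lists gave 2 members each, and Ahnak2, which is in no list, is described with them. Anxa2, an annexin that binds membrane phospholipids, read 5617, 5489.5, 1039 and 5113 in WT, 753, 668, 756 and 480.1 in KO and 3282, 1729, 1133 and 6908 in AAV libraries. Its means were 4315 ± 2194, 664 ± 129 and 3263 ± 2594 (SD, n = 4). WT replicate 3 and AAV replicate 3 sat near the KO level, and the other libraries of these labels well above it. Ahnak2, a giant scaffold protein related to AHNAK, read 9131, 9335, 534 and 7798 in WT, 243, 153, 203 and 126 in KO and 7652, 1759.9, 457 and 12828 in AAV libraries. Anxa8 differed by -4.39. Of the 8 other annexins 2 were called lower in KO than in WT (Anxa1 and Anxa4) and 1 higher (Anxa3).

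S100a4, a calcium-binding protein of motile and fibroblast-like cells, read 7319, 6734, 234 and 6510.0 in WT, 158, 114, 206 and 129 in KO and 1506, 443, 328 and 6375 in AAV libraries. WT replicate 3, at 234, was just above the highest KO value of 206. S100a13 differed by -2.57. Of 8 further S100 genes tested, 4 were called lower in KO than in WT (S100a1, S100a6, S100a10 and S100a16) and none higher by limma (S100a8 did not reach the value filter there). S100a10, the partner of annexin A2, averaged 2245 in WT, 444 in KO and 1556 in AAV libraries.

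Genes of muscle repair and denervation gave 8 members. Timp1, an inhibitor of matrix metalloproteinases, read 752, 1151, 67.4 and 1349 in WT, 12.6, 7.7, 3.26 and 2.65 in KO and 345, 97.7, 30.7 and 937 in AAV libraries. WT replicate 3 and AAV replicates 2 and 3 were far below their groups, and even so above all KO values. Nmrk2, a nicotinamide riboside kinase of muscle, was one of the most abundant members, at 15462, 21649, 6965 and 17959.7 in WT, 1204, 2268, 1277 and 667 in KO and 6851, 5053, 5829 and 18536 in AAV libraries. The developmental transcription factor Sox11 had 1 read over the 4 KO libraries, against 68.8, 70.2, 6.49 and 56.6 in WT and 52.4, 10.1, 5.91 and 55.1 in AAV libraries. The other members of the list were the small GTPase Rrad (-3.82), the deubiquitinase Uchl1 (-3.46), the transcription factor Runx1 (-2.33), the TWEAK receptor Tnfrsf12a (-2.28) and the stress gene Gadd45a (-2.26). Of 18 further genes, 9 were called lower in KO than in WT and none higher by limma, and 6 were called higher in AAV than in KO. For the whole list the latter count was 14, and 9 without AAV replicate 1. The 14 include the 8 members, whose direction was fixed by the choice, so the count is no test of them. The further genes called in both comparisons included Tmem8c, which encodes the myoblast fusion protein myomaker. Tmem8c averaged 172 in WT, 2.4 in KO and 86 in AAV libraries.

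Mustn1, a small nuclear protein of muscle and skeletal tissue, had the highest mean of all members. It read 24665, 30285, 5356 and 27168 in WT, 2179, 1900.2, 1638 and 1224 in KO and 13229.6, 7117, 2981 and 22310.3 in AAV libraries. Mustn1 lies at chromosome 14, 30879200 to 30881610, and per kb of exon its mean level was 17693 in WT, 1404 in KO and 9231 in AAV libraries. For Nmrk2 the level per kb of exon was 8365, 730.2 and 4891. The order of these 2 genes was the same on that scale.

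**Figure D4:**
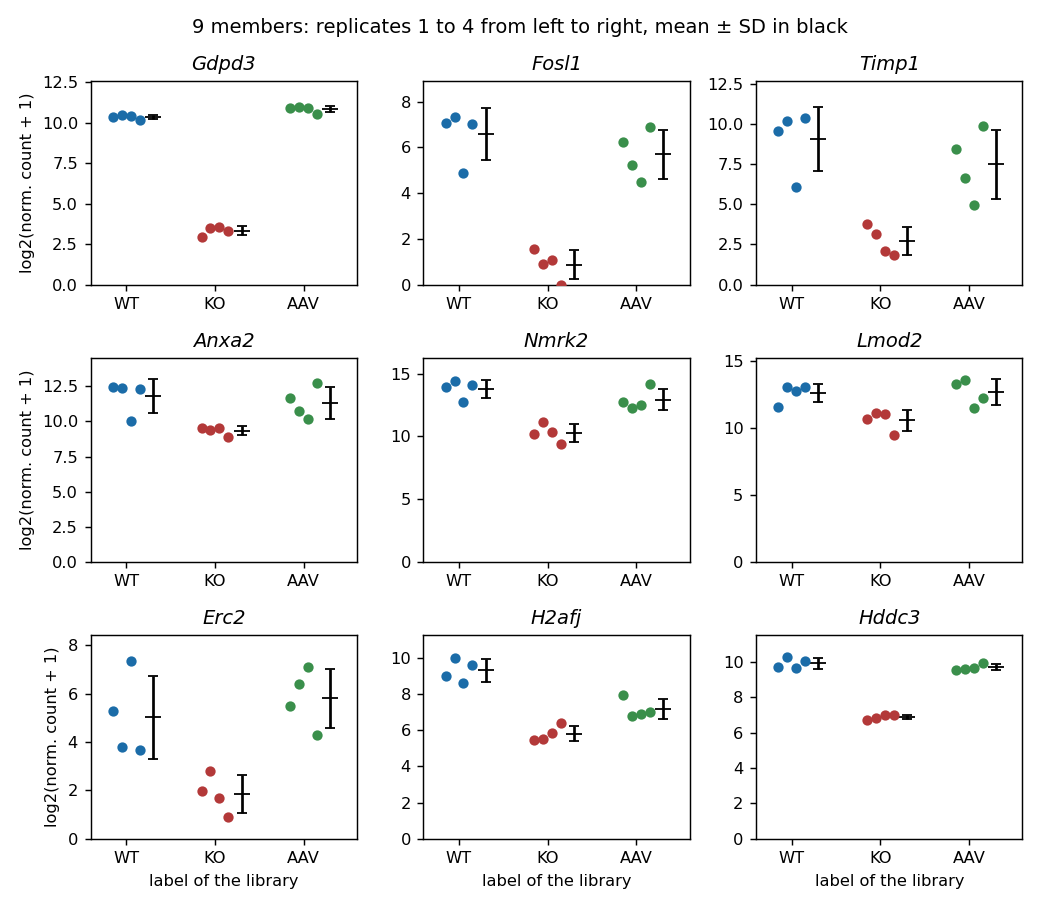
Values of 9 members as log2(normalised count + 1), with the libraries labelled WT (blue), KO (red) and AAV (green), replicates 1 to 4 from left to right in each group, and mean ± SD in black. Gdpd3 and Hddc3 are even within each group, Fosl1, Timp1 and Anxa2 are low in WT replicate 3 and AAV replicate 3, Erc2 is high in both, and H2afj is lower in AAV than in WT.

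Slow-fibre and cardiac-type muscle proteins gave 7 members, which did not share 1 pattern. Sln, sarcolipin, an inhibitor of the sarcoplasmic calcium pump, read 1034, 1455, 48.7 and 1264 in WT, 34.8, 6.84, 15.2 and 6.19 in KO and 347, 112, 46.1 and 593 in AAV libraries. Like the repair genes it dropped in WT replicate 3, close to the highest KO value. Lmod2, leiomodin 2, which lengthens actin filaments, read 3016, 8289, 6733 and 8627 in WT, 1627, 2182, 2088 and 696 in KO and 9952, 12234, 2880.5 and 4835 in AAV libraries, with WT replicate 3 near the WT mean and AAV replicate 3 the lowest AAV value (r with the profile 0.12). Myoz2, a Z-disc protein of slow fibres and heart, was alike, at 1225, 2996, 2593 and 3065 in WT, 345, 706, 322 and 112 in KO and 2405, 4367, 1300.3 and 1751 in AAV libraries (r = -0.0065). Smtnl1 (smoothelin-like 1) differed by -2.46, the calcium store protein Casq2 by -2.11, Adprhl1 by -2.38 and the F-box protein Fbxl22 by -2.33. Of 12 further genes of the list, 5 were called lower in KO than in WT and 1 higher (Pln, phospholamban), and 5 were called higher in AAV than in KO.

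Myeloid genes gave 4 members, with correlations of 0.89 to 0.98 with the shared profile. Trem2, a lipid receptor of macrophages, read 86.9, 93.5, 8.12 and 149 in WT, 0.966, 0.855, 3.26 and 1.77 in KO and 44.1, 22.1, 8.27 and 123 in AAV libraries. Lgals3, the lectin galectin-3, read 3348, 3733, 138 and 3500.3 in WT, 80.2, 67.6, 112 and 91.1 in KO and 702, 288, 167 and 2392 in AAV libraries. In both genes WT replicate 3 and AAV replicate 3 were the lowest outside KO. The chemokine receptor Cx3cr1 differed by -3.47 and the receptor Cd300lb by -2.68. Of 24 further myeloid genes, 16 were called lower in KO than in WT and none higher by limma, with a median difference of -1.98, and 6 were called higher in AAV than in KO. The calls higher in AAV than in KO for the whole list were 10. These include the 4 members, whose direction was fixed by the choice, so the count is no test of them. It depended on single libraries, with 20 without AAV replicate 3, 2 without AAV replicate 1, KO replicate 2 or KO replicate 4, 3 without KO replicate 1, 5 without AAV replicate 4 or KO replicate 3, and 6 without AAV replicate 2.

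Neuronal and synaptic genes (14 members) and epithelial genes (9 members) are also among the members. These 2 lists and the list of short genes were written with the study's own table of genes lower in KO in view, so their counts are no independent evidence of direction. Sstr2, a somatostatin receptor, had no read in the KO libraries, 59.7, 87.2, 5.68 and 98.5 in WT and 23.4, 3.02, 1.18 and 37.6 in AAV libraries, which is at least 89-fold and 23.1-fold above the level that 3 reads over the 4 KO libraries would give. Tac4, a tachykinin, also had no KO read, and its mean was at least 58-fold higher in WT and 22-fold higher in AAV libraries. The same floor gave at least 20.2-fold and 38.9-fold for Ppapdc1a, 8.3-fold and 7.86-fold for the mucin Muc15, and 8.27-fold and 6.05-fold for the hyaluronan receptor Hmmr. Floors cover counting error only.

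Lingo1, a neuronal receptor component that restrains myelination, read 533, 502, 150.2 and 333 in WT, 4.83, 13.7, 16.3 and 29.2 in KO and 255, 152, 145 and 314 in AAV libraries. Erc2 ran in the opposite order within groups, at 38, 12.8, 159.9 and 11.7 in WT, 2.9, 5.99, 2.18 and 0.884 in KO and 44.1, 82.6, 135 and 18.4 in AAV libraries, with its highest values in WT replicate 3 and AAV replicate 3. Fxyd6, a regulator of the sodium pump, was the most abundant of the list at 3407 ± 1829.9 in WT, 612 ± 164 in KO and 3138 ± 1773 in AAV libraries (SD, n = 4). The other neuronal members differed by between -3.55 (the small GTPase Diras1) and -2.11 (Golga7b), among them the vesicular glutamate transporter Slc17a7 (-2.59), the neurotrophin Bdnf (-2.13), the reelin receptor Lrp8 (-2.54), Lrrc3b (-2.24), Lrfn4 (-2.30), Srgap3 (-2.20) and Pianp (-2.16). The Schwann cell and nerve markers summed to 1300.1 to 2853 in WT, 1945 to 3052 in KO and 1594 to 4398 in AAV libraries.

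Among the epithelial genes, Msln, mesothelin, a surface protein of mesothelial cells, read 439.8, 342, 21.9 and 202 in WT, 0.966, 4.28, 2.18 and 0.884 in KO and 198, 69.5, 24.8 and 713 in AAV libraries. WT replicate 3 and AAV replicate 3 were the lowest libraries outside KO. Perp, a desmosomal protein, was more even, at 415, 192, 219 and 180.4 in WT, 45.4, 45.3, 43.5 and 52.2 in KO and 285, 228, 229 and 377 in AAV libraries. The keratins Krt80 (-2.53) and Krt18 (-2.88), the transcription factor Klf5 (-2.56), the tight junction protein Marveld2 (-3.05), the polarity protein Crb3 (-2.37) and Prr15 (-2.35) were other members, as was Anxa8, which is also an annexin. Of the same list, Krt5, Krt14, Epcam, Dsp, Cldn3 and Cldn4 were not measured. Of 7 further genes of the list tested, 4 were called lower in KO than in WT by limma and 1 higher (Ppl). Tendon and cartilage-type genes gave Cilp (-2.47), the tendon transcription factor Scx (-2.28) and the proteoglycan Spock2 (-2.22). Of 10 further genes of that list 1 (Sox9, a cartilage transcription factor) was called lower in KO than in WT.

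The list of short genes gave Hddc3, H2afj, Trappc6a, Tubb6 and Tspo. Hddc3, a small phosphohydrolase, was among the evenest members, at 833, 1241, 786 and 1043 in WT, 105, 114, 127 and 125 in KO and 751, 765, 810.2 and 973 in AAV libraries. Trappc6a, a vesicle tethering subunit, read 205, 424, 262 and 357 in WT, 20.3, 34.2, 58.7 and 53.9 in KO and 198, 274, 281 and 239 in AAV libraries. WT replicate 3 was the lowest WT library for Hddc3, by a small margin, and otherwise neither WT replicate 3 nor AAV replicate 3 was the lowest of its group in these 2 genes. Of the members, 5 had an SD under 0.35 log2 units in both WT and AAV libraries: Gdpd3, Hddc3, the homeobox gene En1, the kinase gene Map3k9 and the Rac exchange factor Tiam2. The median SD of the members was 0.98 in WT, 0.44 in KO and 0.90 in AAV libraries, against 0.35, 0.18 and 0.31 for all coding genes considered. Tubb6, a beta-tubulin of regenerating fibres, differed by -2.58 and Tspo, a mitochondrial outer membrane protein abundant in macrophages, by -2.67.

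The remaining 91 members are in no list, and their grouping was made after their values were seen. Immune genes (13) differed by -3.67 to -2.03 and included the T cell gene Tagap, the class I genes H2-T24 and H2-T10, the chemokine Ccl22 and the interferon-linked Gbp10 and Gm4841. Gbp10 read 205, 175, 627 and 117 in WT, 26.1, 24.8, 17.4 and 26.5 in KO and 398, 546, 349.6 and 163 in AAV libraries, and was highest in WT replicate 3. Secreted signals, inhibitors and proteases (7) held the Wnt ligand Wnt16, the Wnt deacylase Notum, the serpins Serpinb1a and Serpinb8, and Fetub. Membrane, scaffold and adhesion genes (10) ranged from -4.35 to -2.13, with the Niban family gene Fam129b and Plekho1 among the more abundant. Transcription and RNA factors (9) included En1, Zfp605, Trp73 and Lin28a. Zfp605, a zinc finger gene, read 409, 369.9, 632 and 498 in WT, 69.6, 67.6, 66.3 and 86.7 in KO and 689, 563, 521 and 363 in AAV libraries, with no dip in WT replicate 3 or AAV replicate 3. Kinase, GTPase and cell cycle genes (8, such as Cdk6), metabolic enzymes (8, such as Gsta1 and Osbpl3), ubiquitin ligase adaptors and other small families (7), transporters and channels (4) and cell death genes (3, such as Gsdma) followed, and 15 had no group.

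For 8 members another measured gene has a transcript of at least 90% identity over at least 50% of the length, so that reads could be split between the 2 copies and the member's level is uncertain. Gm9825 and Rnps1, an RNA-binding splicing cofactor, were 99.4% identical. Gm9825 read 218, 329.5, 262 and 217 in WT, 0.966, 3.42, 2.18 and 0.884 in KO and 192, 216, 239 and 101 in AAV libraries, while Rnps1 averaged 267, 475 and 179. The sum of the 2 genes was 524 in WT, 477 in KO and 366 in AAV libraries, a far smaller gap than that of Gm9825 alone. Tagap averaged 32.4, 1.52 and 20.8, and Tagap1 (99.0% identical) 73.7, 405 and 55.3, so that their sum was highest in KO (406, against 106 in WT and 76.0 in AAV libraries). Gm5828 beside Tox4 (96.7%), Gm10093 beside Hdac1 (99.4%) and Gm8420 beside Rpl15 (96.6%) were the smaller partner in every group. The sum of Gm5828 and Tox4 was 1346 in WT, 2682 in KO and 1281 in AAV libraries. Pcna-ps2 and Erdr1 had the copies Pcna and Gm21887. The part of split reads in these levels was not tested.

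**Figure D5:**
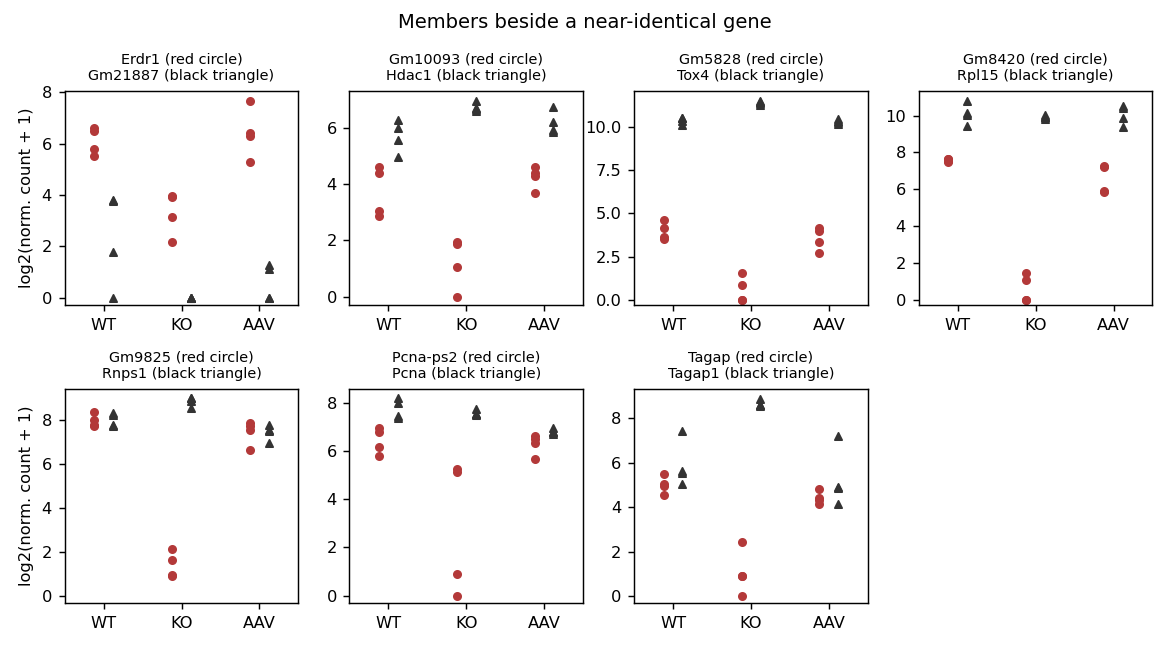
Members with a near-identical gene (red circles, 7 pairs) beside that gene (black triangles), as log2(normalised count + 1) in the 4 libraries of each label. Rnps1, Tox4, Hdac1 and Tagap1 have their highest group mean in the libraries labelled KO, where their partners among the members are lowest.

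In the annotation (GENCODE M21 on GRCm38) 151 members were found, of which 143 were protein coding and 8 had another type, 5 of them processed pseudogenes (Gm9825, Gm8420, Gm5828, Gm10093 and Pcna-ps2). The members were spread over the chromosomes, with 12 on chromosome 11, which carries Gaa, or 1.04% of its coding genes considered, and 13 on chromosome 6 (1.90%). On the other strand 27 members overlapped a measured gene, for example Fosl1 with Ccdc85b and Timp1 with Syn1. Whether the counting used strand is not given in the sources used here, so reads of such pairs may not be told apart. The members had a median of 2917 bases of exon, against 4448 for the coding genes considered.

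Promoters from RefSeq (GRCm38.p6, 250 bases before to 50 after the start) matched 103 of the 154 members by symbol. Because many members moved together across libraries, these windows were searched on both strands for 7 motifs. The AP-1-like pattern TGANTCA takes any base as N, and it reads as itself on the other strand. It was in 11 of 103 members (10.7%), against 6.46% of 10130 coding genes considered and 7.81% of 32851 promoters. The E box CAGCTG was in 22.3% (18.8% of the coding genes considered and 16.3% of promoters), TGTGGT in 16.5% (14.9% and 16.8%), TATAAA in 11.7% (9.35% and 13.6%) and GGGCGG in 52.4% (67.3% and 35.7%). TGACGTCA was in 1 member, Sstr2 (0.971%, against 3.38% and 1.79%), and the CArG box in 1, Fbxl22 (0.971%, against 1.67% and 1.63%). The median ratio of observed to expected CpG in the members' promoters was 0.467, against 0.731 in those of the coding genes considered and 0.384 in all promoters. A match is a stretch of letters and was not tested as a site.

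The promoters below belong to the most abundant or most changed members with TGANTCA, and to Trem2 as a myeloid member, and capitals mark the motif.
Anxa2 (chr9:69453433-69453732, + strand): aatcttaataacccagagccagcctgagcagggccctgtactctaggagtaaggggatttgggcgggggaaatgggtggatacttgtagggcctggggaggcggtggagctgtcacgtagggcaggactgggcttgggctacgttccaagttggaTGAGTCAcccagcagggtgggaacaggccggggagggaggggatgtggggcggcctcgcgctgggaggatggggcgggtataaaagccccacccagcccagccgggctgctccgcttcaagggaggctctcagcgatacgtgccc
Trem2 (chr17:48346151-48346450, + strand): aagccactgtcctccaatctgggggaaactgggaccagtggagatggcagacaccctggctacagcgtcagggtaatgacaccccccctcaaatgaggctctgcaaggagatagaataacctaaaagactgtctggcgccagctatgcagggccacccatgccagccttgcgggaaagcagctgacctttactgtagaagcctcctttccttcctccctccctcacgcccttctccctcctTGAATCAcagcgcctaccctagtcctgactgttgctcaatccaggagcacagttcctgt
Hal (chr10:93488518-93488817, + strand): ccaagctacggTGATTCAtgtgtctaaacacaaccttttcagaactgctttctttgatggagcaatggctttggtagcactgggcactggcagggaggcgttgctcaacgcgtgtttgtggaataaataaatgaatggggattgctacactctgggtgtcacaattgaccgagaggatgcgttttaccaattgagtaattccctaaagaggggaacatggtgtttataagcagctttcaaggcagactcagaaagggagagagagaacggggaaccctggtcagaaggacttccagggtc
Myoz2 (chr3:123034938-123035237, - strand): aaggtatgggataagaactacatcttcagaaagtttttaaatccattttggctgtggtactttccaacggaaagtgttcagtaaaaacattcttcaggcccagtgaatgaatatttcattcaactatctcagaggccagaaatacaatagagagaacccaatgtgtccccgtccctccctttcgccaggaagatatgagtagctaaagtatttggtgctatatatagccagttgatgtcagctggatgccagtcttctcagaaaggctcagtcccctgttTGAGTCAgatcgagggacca

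Of these 4 genes Anxa2 and Trem2 followed the shared library profile (r = 0.99 and 0.98) while Hal (0.41) and Myoz2 (-0.0065) did not, so the motif stood in members of both kinds. The other 7 members with it were Serpinb8, C77080, Cgref1, En1, Mroh7, Bdnf and Erc2, whose correlations ran from -0.95 to 0.98.

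The libraries labelled AAV and WT were compared with each other by limma. Because the choice removed genes whose AAV or WT values stayed at the KO level, a low count of members called here is partly fixed by the choice and does not show how far the members returned to the WT level. Over 14939 genes tested by limma, 142 were called (0.951%), 109 higher and 33 lower in AAV libraries. This count was 330 without WT replicate 3, and 18 to 83 without any 1 of the other 7 libraries. Of the 154 members, all of which were tested, 1 was called lower and 0 higher, beside 0.221% and 0.73% of all genes. At an unadjusted p under 0.05 by limma 8 members were lower and 4 higher, 7.79% of the members against 18.2% of all genes. Without WT replicate 3 these counts were 66 and 4, or 45.5% of the members against 24.6% of all genes, so that the order of the members and all genes turned with this library. By edgeR 1 member was called lower and 0 higher, beside 0.161% and 0.683% of all genes, and 14 members (9.09%, against 17.5% of all genes) had an unadjusted p under 0.05. By DESeq2 2 members were called lower and 0 higher, beside 0.616% and 2.1% of all genes, and 21 members (13.6%, against 19.4%) had an unadjusted p under 0.05. The members' median standard error was 0.56, against 0.25 for all genes, so that a difference had to be larger to be called.

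The called member was H2afj, a variant of histone H2A. H2afj read 518, 1025, 384 and 795 in WT, 43.5, 45.3, 56.6 and 83.1 in KO and 249, 111, 117 and 130.3 in AAV libraries. All AAV values lay below all WT values and above all KO values. AAV libraries were lower than WT by a log2 difference of -2.14 with a standard error of 0.35 (limma, adjusted p = 0.028), in 4 of 4 libraries. The call was lost when any library but AAV replicate 1 or WT replicate 3 was left out, with adjusted p from 0.0536 to 0.11 by limma in those 6 fits and differences from -2.24 to -1.91. By DESeq2 the antisense gene 2310001K24Rik was the second member called (-1.42, adjusted p = 0.020). By limma its difference was -1.37 (adjusted p = 0.092), from 21.7, 34, 35.7 and 34.1 in WT and 16.5, 14.1, 10.6 and 6.42 in AAV libraries.

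The AAV and WT values did not overlap in 5 members. H2afj, 2310001K24Rik, Gm8420 and Map3k9 were lower in all AAV libraries (2.6% of members, beside 4.97% of all genes), and Gdpd3 was higher (0.649%, beside 6.69%). Gdpd3 differed by 0.47 (adjusted p = 0.137 by limma), Gm8420 by -1.02 (adjusted p = 0.166) and Map3k9 by -0.45 (adjusted p = 0.367). None of these 3 was called by limma. By DESeq2 Gdpd3 had an adjusted p of 0.035, but its difference of 0.48 was below the size needed for a call.

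Most members had a lower mean in AAV than in WT libraries, which is given as a description over the members without a test. The median difference was -0.49 over the members and -0.03 over all genes tested, and 119 of 154 members (77.3%) had a lower AAV mean on the log2 scale, against 53.2% of all genes. The mean in AAV libraries was a median of 70.7% of the WT mean, under 50% in 23 members and at or above 100% in 33. Sln (28.9%), S100a4 (41.6%) and Timp1 (42.5%) were low, while Myoz2 (99.4%), Lmod2 (112%) and Hal (127%) were near or above WT. The median depended on single libraries: without WT replicate 3 it was -0.94, without AAV replicate 4 -0.82, without AAV replicate 3 -0.24, and without both WT replicate 3 and AAV replicate 3 it was -0.63. Between KO and WT the members' median was -2.92 and between KO and AAV -2.45, beside 0.03 and -0.04 over all coding genes considered, and the 2 values share the KO libraries and the choice of genes.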

How the data were processed

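Quadriceps RNA of 12 mice was sequenced. Per the labels and the study's methods, the authors trimmed reads with Trim Galore 0.4.1 (reads of 20 nt or more were kept), mapped them with STAR to the mouse genome (GRCm38), counted uniquely mapped reads per gene with HTSeq 0.6.1 and divided the counts by DESeq2 1.16.1 size factors. The deposited values are therefore a normalised signal and not counts, but with a tolerance of 0.01 they gave whole reads for 100% of values in each of the 12 libraries. The authors' log2 fold changes, their standard errors, Wald scores, p-values and adjusted p-values in the 2 tables were not used. The KO values differed between the tables by 0, so both were joined on gene identifier, and 0 columns belonged to other samples.

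The main test was limma 3.58.1 with a trend on log2(normalised count + 1), over genes that reached a value of 10 in at least 1 of the 8 libraries of a comparison, and p-values were adjusted over all of them (Benjamini-Hochberg). Calls needed both an adjusted p under 0.05 and a log2 difference of 1 or more in size. Alternatives on recovered reads were edgeR 4.0.16 (TMM) and DESeq2 1.42.0, and further ones concerned scaling by total reads, a pseudocount of 0.1, no filter, a replicate block, all 12 libraries in one fit and each library left out. The fits were tested on simulated data. Counting error alone limits genes with few reads, and at 22122233 to 47379737 reads per library a group of 4 with no read is set against a floor of 3 reads. The members and lists were chosen with earlier results of these data known. Genes named were Gaa, the 12 members with the highest mean in WT and AAV libraries, the 12 with the largest difference, the 4 on either side of the threshold, members called between AAV and WT, list members, and others needed to describe a list. A few genes and the results that need them are not reported here. Copies were found with BLAST 2.17.0, and R 4.3.3 and Python 3.11.15 (pandas 2.3.3, numpy 2.4.6, matplotlib 3.10.9) were used.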

Additional observations from a re-analysis of the deposited data

Results flagged for a closer look

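Each value below is the gap of the extreme library of a group of 4 to its nearest neighbour as a share of the group's range of log2(normalised count + 1), set against Dixon's critical value at 95%. Chance alone marks about 1 in 20 groups, and 16 of the 90 groups of 4 (30 genes) passed. WT replicate 3 was the lowest of its group by this measure in 12 members: S100a4 (0.966), Anxa2 (0.944), Ahnak2 (0.937), Tspo (0.917), Sox11 (0.906), Sln (0.899), Fam129b (0.890), Fosl1 (0.887), Mustn1 (0.882), Anxa8 (0.879), Bok (0.874) and Tubb6 (0.835). These 12 groups share 1 library and are not separate events.

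The other 4 were single cases. Gaa stood out in WT replicate 2 (0.908, a count of 14640.2 against 324 to 460.3 in the other WT libraries). Bok, a cell death gene, was high in AAV replicate 4 (0.920, 347 against 53.4 to 62.0). Sox11 had its only KO read in replicate 3 (1.0), and Tubb6 was low in KO replicate 4 (0.905, 279 against 365 to 376).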

How the results depend on the processing

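The median AAV minus WT difference over the members stayed below 0 in all 16 alternatives, from -0.94 to -0.24 with a library left out. The count of genes called between AAV and WT was 406 by DESeq2, 398 with all 12 libraries in one fit, 250 with scaling by total reads and 18 to 330 with a library left out. Of these, members called lower were 2 by DESeq2 and 0 to 2 with a library left out, and none was called higher in any of these fits. Between KO and WT 2070 genes were called (1332 to 3238 with a library left out), and between AAV and KO 1338 (787 to 1966). The rule gave 253 members at a threshold of -1.5, 48 at -3, 147 to 215 with a library left out and 316 without WT replicate 3 and AAV replicate 3, which was chosen after seeing the data. Scaling by total reads moved the median of all genes between AAV and WT from -0.03 to 0.12 (members -0.34) and between AAV and KO from 0.04 to 0.21, and changed the split of calls higher and lower in AAV than in WT from 109 and 33 to 224 and 26. The cause of these shifts was not tested. Fewer than 10 normalised counts in KO libraries, as in 77 members, limit how exactly a difference can be given.

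The labels state no pairing of animals by replicate number. The correlations of same-numbered WT and AAV libraries were -0.07, -0.35, 0.55 and 0.48, and values of mixed sign cannot settle whether animals were paired. With the replicate block 120 genes were called between AAV and WT, 1 member among them lower and 0 higher, and 42 members had an unadjusted p under 0.05 in place of 12 (27.3% of the members, against 21.5% of all genes in that fit).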
